A study of Mus musculus with 9 samples.

Results

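Cadherins and protocadherins were taken from the count tables of 9 mouse cortical libraries by gene symbol: every Cdh gene with a number, every Pcdh gene, Fat1 to Fat4, Dchs1, Dchs2 and Celsr1 to Celsr3. The tables held 102 such genes among 23319, and Dchs2 was not a row of them. Reads fell on 37 of the 102 members in at least 1 library, 30 of these had enough reads to be tested, and 65 stood at 0 reads in all 9 libraries. Each library was made from 150 green fluorescent cells picked by hand from strips of cortical layers 2 and 3, in anterior cingulate and medial prefrontal areas, at postnatal day 5. All mice carried the fluorescent reporter Ai47, which Cre switches on, and the lines were VIP-Cre;Ai47, SOM-Cre;Ai47 and Nkx2.1-CreER;Ai47, with 3 libraries each. The Nkx2.1-CreER mice were given tamoxifen on embryonic day 17, per the labels, a way of marking late-born chandelier cells, the interneurons whose boutons sit on the axon initial segment of pyramidal cells. The labels call these pups ChC-GFP, and they list no drug for the other 2 lines. Cre in the VIP and SOM lines follows the genes of the peptides vasoactive intestinal polypeptide and somatostatin, which mark other interneuron classes. The groups are called Nkx2.1, SOM and VIP below. The labels do not tie the 3 libraries of a line to separate animals, and the spread on which each p-value rests may therefore be technical.

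Cadherins are calcium-dependent adhesion proteins of the cell surface. Classical cadherins of type I and type II bind cadherins of another cell through their outermost repeat and hold on to the actin skeleton through catenins, and neurons that carry different type II cadherins sort and connect differently in several neural systems. Non-clustered delta protocadherins adhere weakly and signal to actin regulators. The clustered alpha, beta and gamma protocadherins are read from many alternative first exons in 1 chromosomal locus and give each neuron its own combination for self-recognition. The giant Fat, Dachsous and Celsr cadherins act in planar polarity, neuron migration and axon guidance.

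Reads assigned to genes numbered 6484488 to 12465997 per library. As a check of the labels, Sst stood at 1444 to 2163 CPM (counts scaled to a common library total) in the SOM libraries against 0 to 36.1 elsewhere, and Vip at 410 to 799 CPM in the VIP libraries against 0 to 3.52 elsewhere. Lhx6, a regulator of interneurons from the medial ganglionic eminence, stood at 604 CPM or more in every Nkx2.1 and SOM library and at 0.245 CPM or less in the VIP libraries. Nkx2-1 itself stood at 0.0828 to 1.36 CPM in the Nkx2.1 libraries, which is close to no signal at this age. Of the 8 astrocyte markers, all had reads, and their summed level was 253 to 3563 CPM in Nkx2.1, 63.9 to 211 in SOM and 262 to 412 in VIP libraries. The 8 markers of the oligodendrocyte lineage all had reads too, with sums of 259 to 302, 99.97 to 264 and 1.72 to 111 CPM. Sums of 8 excitatory neuron markers ran from 0 to 156 CPM and sums of 8 microglial markers from 30.5 to 142 CPM, with Cx3cr1 and Tmem119 at 0 throughout. Endothelial and mural markers summed to at most 17.6 CPM, with Cldn5, Kdr, Pdgfrb and Vtn of the 8 at 0 in all 9 libraries. The part of these other cell types in the results was not tested.

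The VIP libraries gave the lowest total of cadherin and protocadherin reads. Of the reads in genes, members took 0.388, 0.34 and 0.358% in the Nkx2.1 line, 0.421, 0.431 and 0.456% in the SOM line and 0.217, 0.268 and 0.252% in the VIP line. On the CPM scale with edgeR's TMM factors, the summed level was 3960 ± 708 CPM (SD, n = 3) in Nkx2.1, 4237 ± 205 in SOM and 2325 ± 158 in VIP libraries. All 3 VIP libraries lay below all 6 others on both scales. The Nkx2.1 and SOM libraries overlapped in summed CPM but not as shares of reads, where all Nkx2.1 libraries were below all SOM libraries. In RNA from pools of cells, fewer cells that express a gene and less RNA per cell cannot be told apart. The number of members with a read was 26 to 32 in Nkx2.1, 31 to 34 in SOM and 26 to 28 in VIP libraries. With every library thinned to 6484488 reads, it was 26 to 31, 30 to 34 and 24 to 27.

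**Figure D1:**
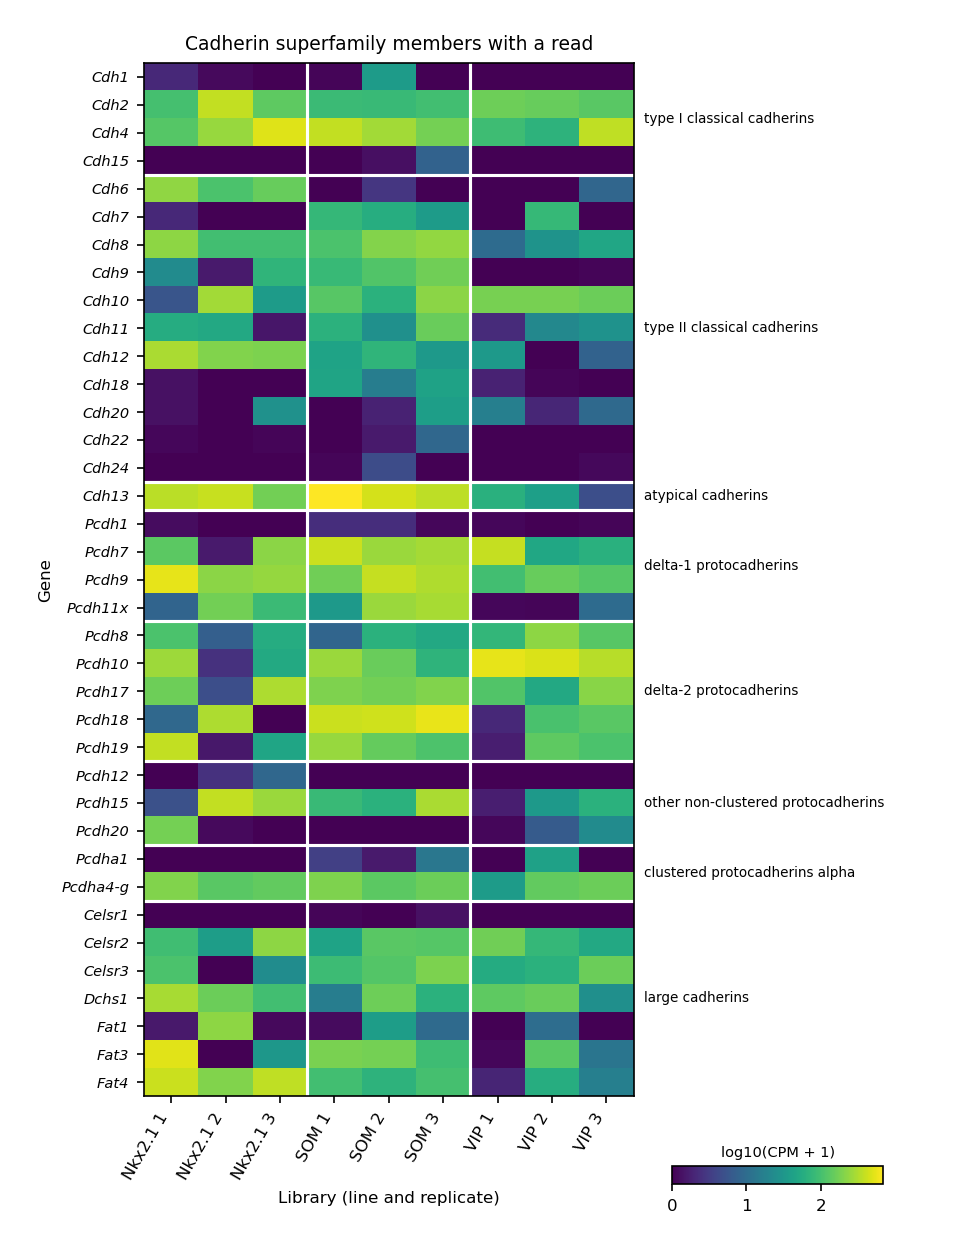
Level of the 37 members with a read (rows, grouped by subfamily) in the 9 libraries (columns), as the log10 of CPM plus 1. Cdh6 is bright in the Nkx2.1 columns, Cdh18 in the SOM columns, and Cdh9 and Cdh13 are dark or dim in the VIP columns, while several rows such as Fat3 and Pcdh19 differ widely within 1 line.

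Per kilobase of exon, which allows levels of different genes to be set side by side, delta protocadherins, 2 type I cadherins and the atypical Cdh13 stood highest. This ranking leaves out Pcdha4-g, at a mean of 143 CPM, because no exon length was matched to it. Means over the 9 libraries were 40.1 CPM per kb for Pcdh18, 36.4 for Pcdh9, 33.8 for Cdh4 (R-cadherin), 24.9 for Cdh13 (T-cadherin), 18.8 for Pcdh7 and 18.1 for Cdh2 (N-cadherin). The leading gene differed by line: Pcdh9 at 49.2 CPM per kb in Nkx2.1, Pcdh18 at 86.1 in SOM and Pcdh8 at 31.1 in VIP libraries. No test was made between genes.

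No member passed the test in any comparison. With edgeR's quasi-likelihood test and Benjamini-Hochberg adjustment over all 10728 genes tested, 0 of 30 members reached an adjusted p below 0.05 in Nkx2.1 against SOM, where 0.0932% of all genes did. The same count was 0 in Nkx2.1 against VIP (0.308% of all genes), 0 in SOM against VIP (0.0746%) and 0 in the test of any difference among the 3 lines (0.336%). Before adjustment, p was below 0.05 for 4 members in Nkx2.1 against SOM, 9 in Nkx2.1 against VIP, 7 in SOM against VIP and 7 over the 3 lines. Those shares of 13.3, 30, 23.3 and 23.3% compare with 11.3, 15.2, 6.99 and 11.7% of all genes. DESeq2, run as an alternative, called 4, 7 and 6 members in the same order (8.25, 12.3 and 4.26% of all genes) and 3 over the 3 lines (7.56%). The 2 tools thus differ on whether single members pass, and the fold changes below are given with edgeR's values. The coefficient of biological variation common to all genes was 1.4 in the edgeR fit, with 6 degrees of freedom left for its spread.

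Fitted fold changes of the members leaned to one side in the comparisons with VIP. In Nkx2.1 against VIP, 22 of 30 were higher in Nkx2.1, with a median log2 fold change of 0.75 against 0.0028 over all genes. SOM against VIP gave 22 of 30 higher in SOM and a median of 0.98, against -0.0037 over all genes. Between Nkx2.1 and SOM 13 were higher in Nkx2.1 and 17 in SOM, with a median of -0.27 against -0.0075. The VIP libraries are shared by the first 2 of these comparisons, so the 2 counts are not independent.

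**Figure D2:**
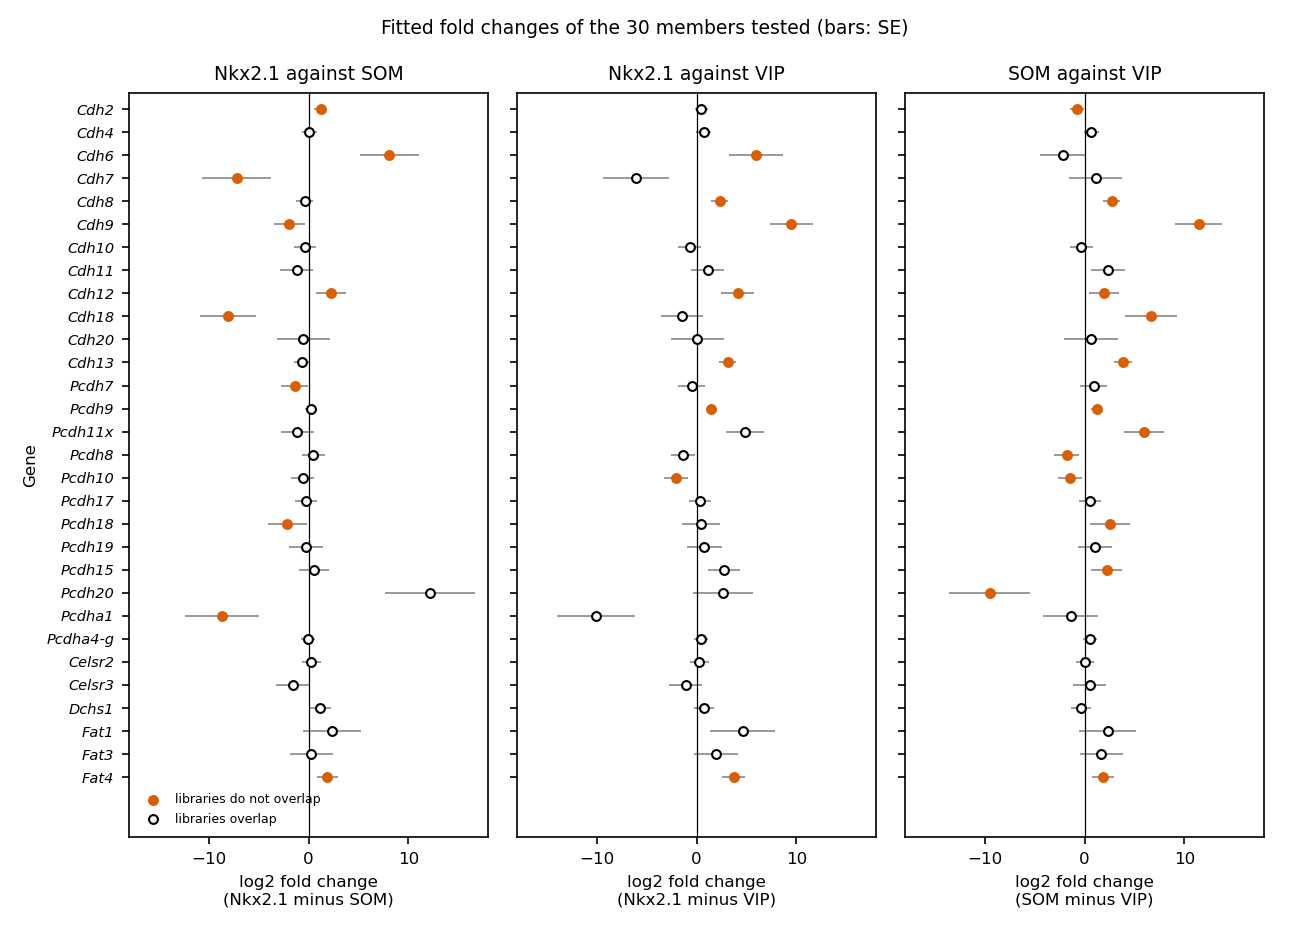
Fitted log2 fold change (x axis, bars are the standard error) of the 30 tested members (y axis) in the 3 comparisons. Filled points mark members whose 3 libraries of one line all lie above the 3 of the other: 10, 8 and 14 of 30 from left to right.

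Non-overlap of the libraries was also counted, meaning that all 3 of one line lay above all 3 of the other. In Nkx2.1 against SOM, 10 members did not overlap (19.9% of all genes), 4 of them higher in Nkx2.1 (5.9%) and 6 in SOM (14%). Nkx2.1 against VIP had 8 (20.1%), with 7 higher in Nkx2.1 (7.31%) and 1 higher in VIP (12.8%). SOM against VIP had 14 (19.9%), with 10 higher in SOM (10.9%) and 4 higher in VIP (9%). Some of these margins were very small. Pcdh15 counted as higher in SOM with 63.64 CPM in the second SOM library against 63.61 in the third VIP library. Pcdh20 counted as higher in VIP with 1 read in the first VIP library against 0 in SOM. As shares of the 30 members, the 3 totals are 33.3, 26.7 and 46.7%.

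Type II classical cadherins, the subfamily with the most members outside the clusters, held genes highest in each of 2 lines. Reads were found for 11 of its 13 genes. Its summed level was 711 ± 140 CPM in Nkx2.1, 679 ± 220 in SOM and 265 ± 35.6 in VIP (SD, n = 3), and all VIP libraries lay below all others. The 5 genes Cdh6, Cdh9, Cdh10, Cdh12 and Cdh18 lie within 10.4 Mb of mouse chromosome 15 (GRCm38, the assembly called mm10). Cdh6 is at chr15:13028701-13173675 on the minus strand. On the plus strand follow Cdh9 at chr15:16728756-16857094, Cdh10 at chr15:18818947-19014236, Cdh12 at chr15:20449265-21589533 and Cdh18 at chr15:22549022-23474418. Of the 10 neighbouring genes of each, 1 was at 0 reads for Cdh6 and 0 for the other 4.

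Cdh6, cadherin-6 or K-cadherin, was read almost only in the Nkx2.1 line. It stood at 229, 107 and 148 CPM in the Nkx2.1 libraries, at 0, 1.78 and 0 in SOM and at 0, 0 and 7.71 in VIP. Every Nkx2.1 library was above every other library. The fitted log2 fold change was 8.09 ± 2.96 (SE) against SOM, with adjusted p = 0.362 by edgeR's quasi-likelihood test, and 5.96 ± 2.68 against VIP, with adjusted p = 0.329.

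Cdh12, also called N-cadherin 2, was also highest in Nkx2.1, with more reads in the other lines. Its levels were 301, 196 and 188 CPM in Nkx2.1, 43.2, 71.3 and 33 in SOM and 32.4, 0 and 6.72 in VIP libraries. The Nkx2.1 libraries were above all others, and the SOM libraries lay above the VIP libraries by a narrow margin. Against SOM the log2 fold change was 2.21 ± 1.51 (edgeR adjusted p = 0.704), and against VIP it was 4.13 ± 1.64 (edgeR adjusted p = 0.283).

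Cdh9 showed the reverse leaning, with SOM first and almost no read in VIP. It stood at 22.6, 0.592 and 71 CPM in Nkx2.1, at 81.3, 117 and 164 in SOM and at 0, 0 and 0.082 in VIP libraries. That last value is 1 read, the only Cdh9 read of the 3 VIP libraries. All SOM libraries were above all Nkx2.1 libraries, which in turn were above all VIP libraries, although the second Nkx2.1 library was close to them. SOM against VIP gave a log2 fold change of 11.44 ± 2.34 with edgeR adjusted p = 0.225, and the ratio of pooled reads was 3606 with a 95% exact counting interval from 647 to 142490. Nkx2.1 against VIP gave 9.50 ± 2.19 with edgeR adjusted p = 0.133, the lowest of any member in that comparison, and a ratio of 976 (175 to 38597). With only the 6 SOM and VIP libraries in the fit the SOM against VIP call was made (edgeR adjusted p = 0.0218), and without the second Nkx2.1 library too (edgeR adjusted p = 0.0453). Nkx2.1 against SOM gave -1.94 ± 1.54 (edgeR adjusted p = 0.79). These intervals cover counting error only.

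Cdh18, cadherin-18, was read almost only in the SOM line. Its levels were 44, 14.8 and 41.6 CPM in SOM, 0.341, 0 and 0 in Nkx2.1 and 0.859, 0.103 and 0 in VIP libraries. The SOM libraries were above all 6 others. The log2 fold change was -8.10 ± 2.79 for Nkx2.1 against SOM (edgeR adjusted p = 0.349), where the Nkx2.1 libraries held 3 reads in all and the ratio of pooled reads was 384 in favour of SOM (131 to 1868). For SOM against VIP it was 6.67 ± 2.62 (edgeR adjusted p = 0.604).

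Cdh10, the fifth gene of the stretch, did not separate the lines. Its levels were 4.65, 280 and 35.3 CPM in Nkx2.1, 125, 63.9 and 220 in SOM and 178, 178 and 156 in VIP libraries. The VIP libraries were tight and the Nkx2.1 libraries spread over the whole range. Along chromosome 15 the neighbours Cdh6 and Cdh9, 3.56 Mb apart, and Cdh12 and Cdh18, 0.959 Mb apart, were thus highest in different lines.

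The RefSeq promoters of Cdh6, Cdh9, Cdh12 and Cdh18 are shown because these relatives from 1 genomic stretch were highest in different lines. Each runs 5′ to 3′ on the gene's own strand, from 250 bases before the RefSeq start to 50 after it, in GRCm38.p6, at chr15:13173626-13173925 (Cdh6, minus strand), chr15:16728665-16728964 (Cdh9), chr15:21111202-21111501 (Cdh12) and chr15:23036213-23036512 (Cdh18). The Cdh12 and Cdh18 windows lie inside the genes as GENCODE draws them, away from the annotated gene start. Capitals mark the longest run that each window shares, on either strand, with another of the 4.
Cdh6: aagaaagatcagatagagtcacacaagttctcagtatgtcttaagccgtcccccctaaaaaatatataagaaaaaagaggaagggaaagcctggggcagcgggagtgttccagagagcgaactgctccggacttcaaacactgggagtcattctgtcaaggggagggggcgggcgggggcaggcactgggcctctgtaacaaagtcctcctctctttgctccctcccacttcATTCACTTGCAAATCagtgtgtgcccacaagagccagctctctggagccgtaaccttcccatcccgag
Cdh9: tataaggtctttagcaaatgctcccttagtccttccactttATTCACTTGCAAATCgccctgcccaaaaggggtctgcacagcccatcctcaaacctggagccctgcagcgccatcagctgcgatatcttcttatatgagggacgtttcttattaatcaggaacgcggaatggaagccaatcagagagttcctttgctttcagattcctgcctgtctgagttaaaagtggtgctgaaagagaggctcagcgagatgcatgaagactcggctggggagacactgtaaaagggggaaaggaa
Cdh12: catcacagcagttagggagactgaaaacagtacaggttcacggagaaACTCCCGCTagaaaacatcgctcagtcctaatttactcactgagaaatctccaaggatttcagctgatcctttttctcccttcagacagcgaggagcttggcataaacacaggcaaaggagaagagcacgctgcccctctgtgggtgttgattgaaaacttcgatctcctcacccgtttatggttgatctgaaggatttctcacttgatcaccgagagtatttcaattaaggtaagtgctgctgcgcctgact
Cdh18: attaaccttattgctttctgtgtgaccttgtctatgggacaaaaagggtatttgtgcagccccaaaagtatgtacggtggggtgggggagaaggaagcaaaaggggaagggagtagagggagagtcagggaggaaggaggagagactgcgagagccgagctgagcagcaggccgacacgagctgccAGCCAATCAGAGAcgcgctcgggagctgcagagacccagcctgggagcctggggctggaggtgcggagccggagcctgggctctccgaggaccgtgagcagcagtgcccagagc

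The windows of Cdh6 and Cdh9 share ATTCACTTGCAAATC, 15 bases in the same orientation, which ends 4 bases before the start in Cdh6 (bases 233 to 247 of the window) and lies at bases 42 to 56 in Cdh9. Among 32851 RefSeq promoter windows of this length, 2 hold the run on either strand, these 2. The run shared by Cdh18 and Cdh9, AGCCAATCAGAGA with a CCAAT box in it, is in 31 windows, and that of Cdh12 with the other strand of Cdh6, 9 bases long, is in 64. The shared runs were looked for after the levels were known. TAATTA, the core bound by LIM and other homeodomain factors, is in 5.29% of all windows and in none of the 4. CACCTG, an E-box, is in 20.2% and TATAAA in 13.6%, and none of the 4 holds either on any strand. Their CpG counts were 8, 8, 9 and 12 in the order shown, against a median of 7 over all windows, and their GC contents 53, 48.7, 46.7 and 60.3%. A match or its absence describes these letters and says nothing of a factor.

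Cdh8, a type II cadherin on chromosome 8, was low in VIP. Levels were 226, 94.9 and 94.4 CPM in Nkx2.1, 108, 205 and 239 in SOM and 8.83, 27.6 and 47.2 in VIP libraries. All VIP libraries were below the others, while Nkx2.1 and SOM overlapped. SOM against VIP gave 2.72 ± 0.87 on the log2 scale with edgeR adjusted p = 0.462.

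Cdh7 was read in every SOM library, at 76.5, 57 and 35.4 CPM. In Nkx2.1 it stood at 1.14, 0 and 0 and in VIP at 0, 78.6 and 0 CPM, so 1 VIP library reached the highest level of all. Nkx2.1 against SOM gave -7.19 ± 3.45 (edgeR adjusted p = 0.476). Cdh11, Cdh20, Cdh22 and Cdh24 made up the remainder of the subfamily with reads, with line means of 16.2 to 81.7 CPM for Cdh11, 8.42 to 12.9 for Cdh20 and at most 2.83 for the last pair.

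**Figure D3:**
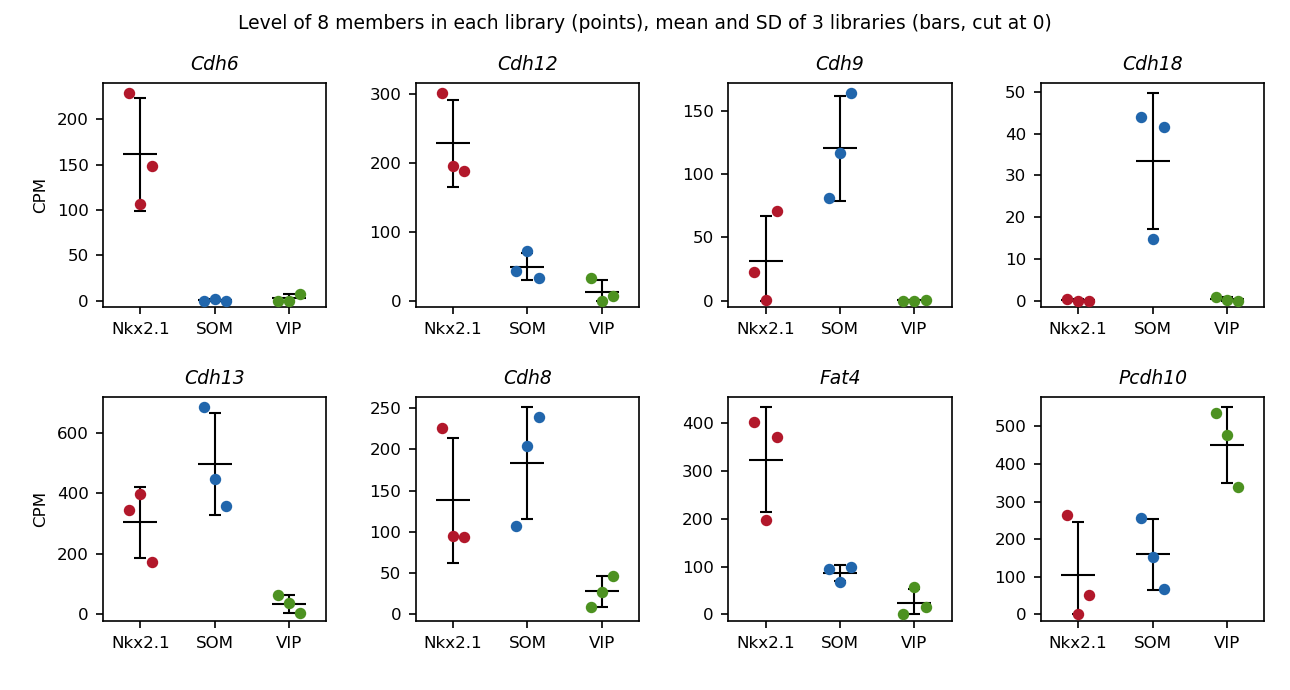
CPM of 8 members in each library (points) by line, with mean and SD of 3 libraries (bars, cut at 0). The Nkx2.1 points of Cdh6 lie at 107 or above with all others at 7.71 or below, and the VIP points of Pcdh10 lie at 338 or above with all others at 264 or below.

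Type I classical cadherins were carried by Cdh2 and Cdh4. Their summed level was 491 ± 234 CPM in Nkx2.1, 376 ± 95 in SOM and 320 ± 148 in VIP libraries, and the groups overlapped. Cdh2, N-cadherin, the main classical cadherin of neurons, stood at 98.8, 376 and 135 CPM in Nkx2.1, 84.7, 81.7 and 94.8 in SOM and 162, 151 and 128 in VIP. The SOM libraries were below all others and close together. The log2 fold change was 1.22 ± 0.67 for Nkx2.1 against SOM (edgeR adjusted p = 0.553) and -0.76 ± 0.66 for SOM against VIP (edgeR adjusted p = 1). Cdh4 overlapped everywhere, with means of 287 ± 189, 275 ± 102 and 173 ± 164 CPM. Cdh1, E-cadherin of epithelia, reached 34.9 CPM in 1 SOM library and at most 1.14 elsewhere, and Cdh15, M-cadherin of muscle, reached 6.75 CPM in 1 SOM library.

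Cdh13 was the 1 atypical cadherin with reads. It encodes T-cadherin, which is held to the membrane by a lipid anchor and has no cytoplasmic part, and lies at chr8:118283733-119324921 on the plus strand. Its levels were 345, 397 and 172 CPM in Nkx2.1, 686, 449 and 360 in SOM and 62.8, 38.8 and 3.77 in VIP libraries. All VIP libraries were below all others. The log2 fold change was 3.83 ± 0.89 for SOM against VIP (edgeR adjusted p = 0.296) and 3.12 ± 0.86 for Nkx2.1 against VIP (edgeR adjusted p = 0.17), while Nkx2.1 and SOM overlapped. The summed oligodendrocyte lineage markers, given above, are also higher in all Nkx2.1 than in all VIP libraries, while SOM and VIP libraries overlap in them. The same holds beside every other member that is higher in Nkx2.1 than in VIP. The part of these markers in the differences was not tested.

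Delta-1 protocadherins, which carry a phosphatase-binding motif in their tail, summed to 540 ± 143 CPM in Nkx2.1, 792 ± 166 in SOM and 291 ± 166 in VIP libraries. Pcdh9 was the steadiest of them, at 537, 220 and 243 CPM in Nkx2.1, 164, 381 and 311 in SOM and 93.8, 150 and 122 in VIP, where all VIP libraries lay below all others. Pcdh7 stood at 133, 0.592 and 220 CPM in Nkx2.1, 403, 254 and 283 in SOM and 389, 47.7 and 61.5 in VIP. SOM exceeded Nkx2.1 in every library, and the log2 fold change was -1.41 ± 1.37 (edgeR adjusted p = 0.858). Pcdh7 shares exon bases with 4932441J04Rik on the other strand, and without strand the reads of both cannot be told apart. Pcdh11x, the X-linked member, stood at 32.5, 254 and 292 CPM in SOM, 7.27, 171 and 85.6 in Nkx2.1 and 0.123, 0.103 and 8.85 in VIP. SOM against VIP gave 5.98 ± 2.01 (edgeR adjusted p = 0.476), with no overlap, and Nkx2.1 and VIP overlapped. Pcdh1 stood at 1.38 CPM or below in all libraries.

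Delta-2 protocadherins, whose tails bind the WAVE actin regulator, were the 1 subfamily with reads in which the VIP mean was not the lowest. They summed to 563 ± 313 CPM in Nkx2.1, 1019 ± 81.6 in SOM and 878 ± 137 in VIP libraries. Pcdh10 (chr3:45378398-45435623, plus strand) was highest in VIP, at 535, 477 and 338 CPM, with 264, 1.52 and 52 in Nkx2.1 and 257, 153 and 68.4 in SOM. All VIP libraries lay above all others. The log2 fold change was -2.09 ± 1.22 for Nkx2.1 against VIP (edgeR adjusted p = 0.485) and -1.50 ± 1.20 for SOM against VIP (edgeR adjusted p = 1). Pcdh10 shares exon bases with 1700027H10Rik on the other strand, and reads of the 2 cannot be told apart without strand.

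Pcdh8, known as arcadlin, an activity-induced protocadherin, was the other delta-2 gene with its highest mean in VIP. It stood at 74.2, 225 and 124 CPM there, at 7.32, 63.6 and 50.1 in SOM and at 106, 6.18 and 55.5 in Nkx2.1. SOM and VIP did not overlap (log2 fold change -1.81 ± 1.21, edgeR adjusted p = 1), Nkx2.1 and VIP did. Pcdh18 leaned to SOM, at 404, 430 and 552 CPM against 8.17, 306 and 0 in Nkx2.1 and 1.1, 105 and 129 in VIP. Its log2 fold change was -2.14 ± 1.98 for Nkx2.1 against SOM (edgeR adjusted p = 0.842). Pcdh17 and Pcdh19, the latter the gene of an X-linked epilepsy, overlapped between all lines, with line means of 126 to 188 and 81.7 to 169 CPM.

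Of the other non-clustered protocadherins, Pcdh15, a component of the hair cell tip link, stood at 4.09, 378 and 256 CPM in Nkx2.1, 82.3, 63.6 and 297 in SOM and 0.736, 32 and 63.6 in VIP. Nkx2.1 overlapped with both other lines. Pcdh20 was listed at 0 in all SOM libraries and reached 177 CPM in 1 Nkx2.1 library with 0.169 and 0 in the others, and Pcdh12 stood at 7.87 CPM or below. These sums, 275 ± 100, 148 ± 130 and 41.5 ± 42.8 CPM, had the largest spread relative to their mean in VIP.

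**Figure D4:**
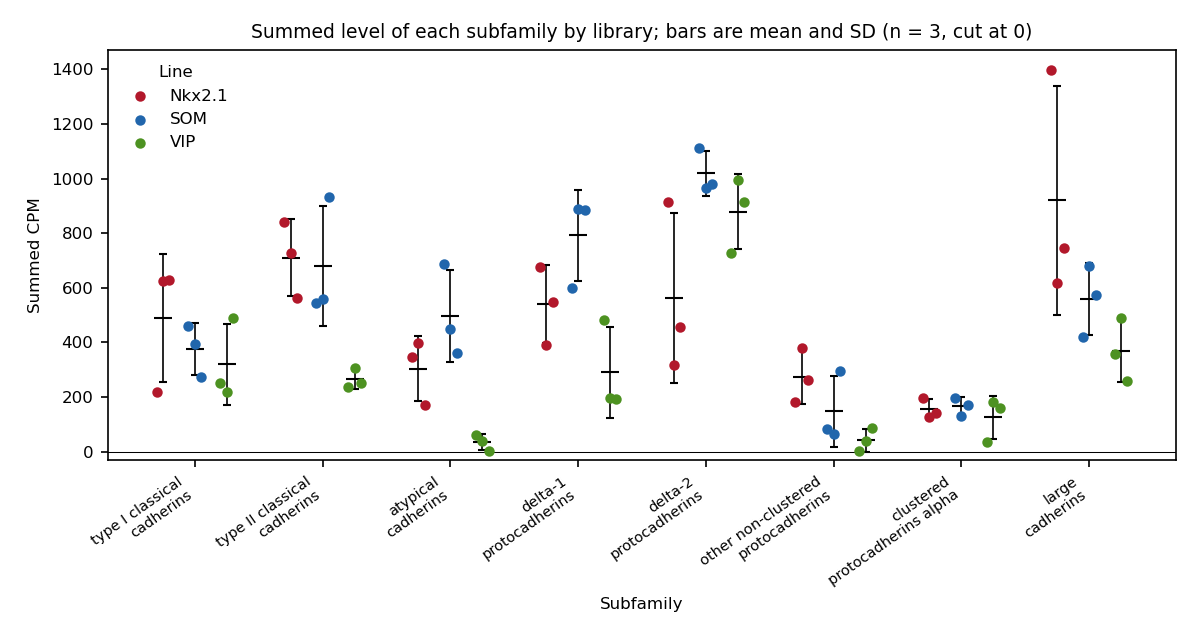
Summed CPM of each subfamily with reads (x axis) in every library (points, by line), with mean and SD of 3 libraries. VIP points lie below all Nkx2.1 and SOM points for type II and atypical cadherins, and inside or above the Nkx2.1 range for delta-2 protocadherins.

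Large cadherins had their highest mean in the Nkx2.1 line, with overlap between Nkx2.1 and SOM. They summed to 920 ± 420 CPM in Nkx2.1, 559 ± 131 in SOM and 369 ± 115 in VIP libraries, with the first Nkx2.1 library at 1399. Fat4, the receptor of Dachsous ligands (chr3:38886940-39011985, plus strand), stood at 401, 197 and 370 CPM in Nkx2.1, 94.8, 68.1 and 98.8 in SOM and 0.981, 57.3 and 15.7 in VIP. The 3 lines followed each other without overlap. Log2 fold changes were 1.89 ± 1.08 for Nkx2.1 against SOM (edgeR adjusted p = 0.581) and 3.71 ± 1.16 for Nkx2.1 against VIP (edgeR adjusted p = 0.211).

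Dchs1, a ligand of Fat4, overlapped between all lines, at 292, 156 and 93.8 CPM in Nkx2.1, 14.8, 159 and 64 in SOM and 135, 154 and 24.7 in VIP. It shares exon bases with Gm15645 on the other strand. Fat3 stood at 506, 0 and 31.1 CPM in Nkx2.1, 182, 172 and 90.4 in SOM and 0.123, 127 and 11.7 in VIP, a spread within Nkx2.1 wider than the differences between the line means. Fat1 reached 226 CPM in 1 Nkx2.1 library and 37.1 or less elsewhere. Of the seven-pass Celsr cadherins, Celsr2 and Celsr3 had line means of 97.2 to 119 and 43.5 to 131 CPM with overlap, and Celsr1 stood at 0.343 CPM or below.

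Wide spread within the Nkx2.1 line bears on many of these values. Among 24 members that reached 100 CPM in an Nkx2.1 library, 7 stood below 1 CPM in another library of the same line, which is 29.2%, against 28.7% of the 4869 tested genes that reached 100 CPM in the line. The 7 were Celsr3, Fat1, Fat3, Pcdh18, Pcdh19, Pcdh20 and Pcdh7. By the same measure it was 0 of 19 members in the SOM line, against 2.19% of 3520 genes, and 2 of 15 in the VIP line, Fat3 and Pcdh19, against 8.33% of 3996 genes. In the Nkx2.1 line the share of members was thus close to that of the other genes at this level.

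Most clustered protocadherins had no reads. Of 59 genes, 57 stood at 0 in all 9 libraries, 96.6%, against 8 of 43 members outside the clusters, 18.6%, and 38.6% of all genes of the tables. All 22 beta and all 22 gamma genes were at 0, and 13 of 15 alpha genes. Of the 2 alpha genes with reads, Pcdha4-g stood at 198, 128 and 143 CPM in Nkx2.1, 194, 130 and 159 in SOM and 35.5, 142 and 159 in VIP libraries. Pcdha1 stood at 0 in Nkx2.1, at 2.44, 0.592 and 12.5 CPM in SOM and at 0, 41.2 and 0 in VIP libraries. Pcdha4-g overlapped between the lines, and the reads of Pcdha1 in VIP all came from 1 library. A gene at 0 in 1 library could have held up to 3 reads, 0.246 to 0.444 CPM, by counting error alone.

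These zeros coincide with the position of the genes. Along the plus strand of chromosome 18, 9 of the 10 protein-coding genes before the clusters and 8 of the 10 after had reads, up to 14467 and 88646 in all, against 1 of the 55 cluster genes placed between them, Pcdha1 with 535. Pcdha4-g, with 289 to 1941 reads per library, had no match in the annotation and could not be placed. Pcdha10, Pcdha11 and Pcdhgb8, all at 0, are also not among the 55. All 11 alpha genes that lie inside the span of another counted gene on the same strand were at 0, and so were the 21 gamma genes of that kind. The remaining gamma gene, Pcdhga1, lies inside no other gene that could be placed and was also at 0. Elsewhere in the genome, 75.7% of 140 protein-coding genes inside another gene's span were at 0, against 34.2% of 19074 not inside one. The 22 beta genes lie inside the span of no other gene that could be placed, and were at 0 as well. Whether Pcdha4-g, which could not be placed, spans them was not tested. The sources used here name neither the counting program nor its annotation. The counts keep a separate row of ambiguous reads, assigned to no gene, with 0.7 to 0.801% of each library's total. How many of these came from the clusters is not known, and whether the zeros reflect counting or the cells was not tested. No level or comparison of beta and gamma protocadherins is therefore given.

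**Figure D5:**
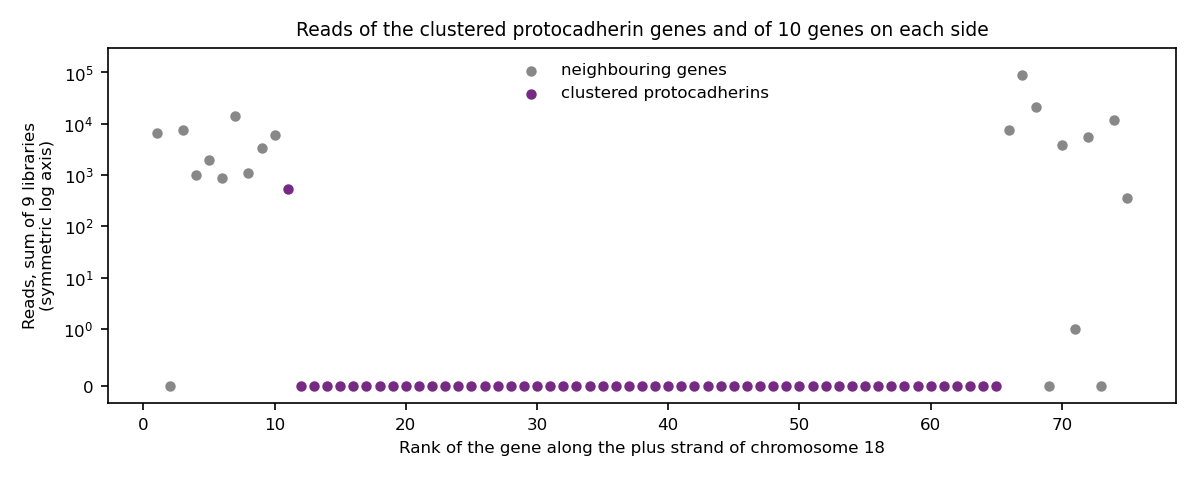
Reads summed over 9 libraries (y axis, symmetric log) for the clustered protocadherins and the 10 genes on each side, in order along the plus strand of chromosome 18 (x axis, rank). Of 55 cluster genes placed, 54 lie on the zero line, while 17 of the 20 neighbours do not. Pcdha4-g, which had reads in every library, could not be placed and is not shown.

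Outside the clusters, the 8 members without a read were Cdh3, Cdh5, Cdh16, Cdh17, Cdh19, Cdh23, Cdh26 and Fat2. Cdh5 is VE-cadherin of endothelium, Cdh16 and Cdh17 are cadherins of kidney and gut epithelium, Cdh19 belongs to Schwann and other glial precursors and Cdh23 pairs with Pcdh15 in the hair cell tip link. Of their 10 neighbouring genes on the chromosome, 0 to 5 were at 0, and only Cdh19 had 5. For the other 7, more than 5 of the 10 neighbours had reads. Whether these zeros reflect counting or the cells was not tested. On the minus strand of chromosome 9, 486 of 522 protein-coding genes were at 0. Fat3, which lies on that strand, had reads, and of its own 10 neighbours only 4 were at 0.

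Genes of the pathways around the members also gave no call. None of the 9 catenin and catenin-like genes, 11 tested planar polarity genes, 9 tested regulators of the clustered locus, 11 tested effectors and sheddases or 4 tested calsyntenins and cadherin-related genes passed the edgeR test in any of the 3 comparisons. Beta-catenin (Ctnnb1) stood at 245 to 355 CPM in Nkx2.1, 170 to 399 in SOM and 216 to 637 in VIP libraries. Alpha-N-catenin (Ctnna2), which links neuronal cadherins to actin, stood at 1005 to 1032 CPM in Nkx2.1, 342 to 740 in SOM and 410 to 620 in VIP, with Nkx2.1 above all others (log2 fold change 1.10 and 0.97, edgeR adjusted p = 0.345 and 0.265). Alpha-T-catenin (Ctnna3) lay the other way, at 0.0828 to 0.254 CPM in Nkx2.1, 12.7 to 57.7 in SOM and 30.1 to 165 in VIP, with Nkx2.1 below all others (log2 fold change -7.46 and -9.15, edgeR adjusted p = 0.194 and 0.0673). Ctcf, the insulator protein that loops the clustered promoters to their enhancer, stood at 109 to 407 CPM in Nkx2.1, 35 to 85.6 in SOM and 14.6 to 73.4 in VIP libraries, with Nkx2.1 above all others (edgeR adjusted p = 0.475 and 0.233). Fjx1, a kinase-related regulator of Fat and Dachsous, stood at 0.227 CPM or below in Nkx2.1, at 16 to 42.6 in SOM and at 8.71 to 28 in VIP (edgeR adjusted p = 0.309 and 0.179). Ret, a receptor with cadherin repeats, was at 0 in Nkx2.1 and SOM and at 20.9 to 70.5 CPM in VIP (edgeR adjusted p = 0.168 and 0.405), and Clstn3, calsyntenin-3, stood at 937 to 1887 CPM in VIP and 375 to 957 elsewhere, with 1 library of each side in the overlap.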

How the data were processed

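Each deposited table holds raw read counts per gene for 1 library. TopHat2 2.0.9, DESeq2 and the mm10 build are named in the submitters' processing notes, without roles. The sources used here name no counting program or strand setting. Rows that name no gene held 83.6 to 85.2% of each table's total and were left out. The members, subfamilies and pathway lists were chosen with earlier results of these data known. Counts of all 9 libraries entered 1 edgeR 4.0.16 fit (R 4.3.3; TMM factors, filterByExpr with a minimum count of 10, quasi-likelihood F tests, Benjamini-Hochberg adjustment over 10728 genes, threshold 0.05), whose script was tested on simulated data. CPM use TMM library sizes. Members named by comparison are those without overlap and with 10 CPM or more in the higher line, up to 5 per direction by fold change. Others are named by level, up to 4 per subfamily. Ctnnb1, Ctnna2, Ctnna3, Ctcf, Fjx1, Ret and Clstn3 were named after their values were seen. Alternatives were DESeq2 1.42.0, other scalings, no filter, the replicate number as a block, fewer libraries and leaving out each library. Positions come from GENCODE for GRCm38, which matched 99 of 102 members, and promoters from RefSeq, which held 28. A zero allows up to 3 reads, 0.246 to 0.444 CPM.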

Additional observations from a re-analysis of the deposited data

How the results depend on the processing

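The count of called members moved from 0 in these settings. DESeq2 called 4 members in Nkx2.1 against SOM (Cdh6, Cdh18, Pcdh20, Pcdha1), 7 in Nkx2.1 against VIP (Cdh8, Cdh9, Cdh12, Cdh13, Fat4, Pcdh11x, Pcdha1), 6 in SOM against VIP (Cdh8, Cdh9, Cdh13, Cdh18, Pcdh11x, Pcdh20) and 3 over the 3 lines (Cdh9, Cdh13, Cdh18), and the cause of the difference between the tools was not tested. The DESeq2 calls of Pcdh20 and Pcdha1 were all against a line with 0 reads in its 3 libraries. Pcdh20 had 1555, 2 and 0 reads in Nkx2.1 and 1, 53 and 276 in VIP. Pcdha1 had 23, 4 and 109 reads in SOM and 0, 399 and 0 in VIP. With only the 6 libraries of SOM and VIP, edgeR called 1 member, Cdh9. Leaving out 1 library gave 0 to 1 calls in SOM against VIP, with Cdh9 called without the second Nkx2.1 library, and 0 in the other comparisons. None of the 23 named fold changes changed direction under any alternative that gave a value, but 18 moved by over 1.5 times without 1 library. In Nkx2.1 against SOM, Pcdh18 went from -2.14 to -6.82 and Cdh2 from 1.22 to 0.43 on the log2 scale without the second Nkx2.1 library, and Cdh6 from 8.09 to 13.67 without the second SOM library. Cdh9 in Nkx2.1 against VIP has no value with only those 6 libraries, since it did not pass the filter there. Of 24 subfamily ratios, 4 changed direction without a library or under a scaling: alpha protocadherins in all 3 comparisons and type II cadherins between Nkx2.1 and SOM. Non-overlap counts were an alternative set added after the data were seen. In Nkx2.1 against SOM they ran from 3 to 5 for members higher in Nkx2.1 and from 6 to 11 for SOM. Nkx2.1 against VIP gave 7 to 9 higher in Nkx2.1 and 1 to 3 in VIP, and SOM against VIP 8 to 15 in SOM and 4 to 6 in VIP. Without 1 library non-overlap is easier to reach for every gene, so these ranges are no result about the members. Library size alone in place of TMM shifted the Nkx2.1 against VIP fold changes of all genes by -0.194 and those against SOM by -0.159 on the log2 scale. Of the 9 same-numbered pairs, 0 correlated over 0.1, and 4 of 9 libraries matched best with their own number. With 3 libraries per line, these values cannot decide whether equal replicate numbers belong together, and the labels do not say. With the replicate block 0 members were called in every comparison.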
